A study of Zea mays with 9 samples.

Results

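A group of 141 of the 30184 genes measured in maize leaves was low in all 3 libraries grown under artificial low R:FR light, while biological low R:FR light left the same genes near the weed-free control. They include a pair of beta-tubulin genes (tub5 and tub4), the cellulose synthase gene CesA12, the wax gene gl4a, the chloroplast import receptor gene toc34B and the potassium transporter gene HAK12. The genes were chosen by these very differences. Their values between the light treatments are therefore a description, and no test is read from them. Groups are named by the deposited labels, and a possible exchange of the artificial and weed-free libraries is described below.

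The members had to meet every limit of a rule on normalized counts. The mean over the 9 libraries was at least 20 and the weed-free mean was under 20000. The highest artificial value had to lie below all 6 of the other libraries. The log2 ratio of the artificial to the weed-free mean, each with 1 added, was at most -1, which is a 2-fold lower level. The same log2 ratio for biological light lay between -0.3 and 0.3. Of 21116 genes with a mean of at least 20, the weed-free limit kept 20939, the demand for no overlap 1177, the fold limit 261 and the window for biological light 142. One of these, the cellulose synthase gene cesa11, is among 3 genes that the rule leaves out by name.

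The libraries came from second leaves of seedlings aged 9 days of the hybrid CG108 x CG102, each library from a pool of 3 plants, with 3 libraries per group. In the artificial low R:FR group (FR), far-red LEDs and bulbs lowered the red to far-red ratio to about 0.6 (all ratios as labelled). In the biological low R:FR group (W, weedy), a living grass stand that served as a surrogate weed reflected far-red light, also to about 0.6, and the grass grew in potting mix. In the weed-free control (WF), as in FR, baked clay surrounded the seedlings, and the ratio was about 1.5. The paper's text gives a higher ratio than the label for the control, and slightly lower ones for both low R:FR treatments. In all 3 groups each seedling was rooted in its own cup, apart from any grass. Against light interference, a corrugated plastic sheet stood between the pots of WF and W, and the paper's methods name none for FR. The groups therefore differ in the ratio, the source of the far-red light and this sheet. For W, they also differ in the plants and medium around the seedling. The design cannot tell the lamps of FR apart from the sheet.

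Plants read the ratio of red to far-red light through phytochromes, photoreceptors that switch between an active and an inactive form. Leaves of neighbours absorb red light and reflect far-red light, so a low ratio signals competitors before they cast shade. The response, shade avoidance, is known for changes in elongation and cell wall growth. Microtubules, built from alpha- and beta-tubulin, guide the cellulose synthase complexes that lay down the wall, and the cuticular wax and the chloroplast import machinery are other parts of a growing leaf cell.

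Several features of the libraries bear on these genes. The recovered reads assigned to genes ranged from 22775151 to 40283408 per library. W3 stood apart from the rest, with a mean distance to the other libraries of 0.847 against 0.493 to 0.567 for the others (root mean square difference in log2 value). The library sizes printed with the study fit the deposited table only if the FR and WF libraries are exchanged, while the deposited column names and the files of single libraries pair up as labelled in 9 of 9 cases. Those names and files both carry the submitters' labels, so their pairing cannot decide whether an exchange took place before both. The labels are followed here. With the exchange, the 141 genes would be those that are lower in the weed-free control than under both low R:FR treatments. The labelled tissue was checked by markers. The leaf genes pep1 and pdk1 of the C4 pathway lay at 582580 or higher in every library, and the markers of dividing cells cyc1, cyc2, pcna2 and kn1 lay between 0 and 5.11.

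The members had a median log2 ratio of -1.24 for FR to WF, with quartiles of -1.47 and -1.12. All genes with a mean of at least 20 had a median of 0.017. Under biological light the members had a median log2 ratio of -0.05 to the control, with 61 above 0 and 80 below, and all genes had a median of -0.02. The log2 ratio of FR to W had a median of -1.27. The log2 ratio of FR to WF was -2 or lower in 10 members, 22 lay between -2 and -1.5, and 109 lay between -1.5 and -1.

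**Figure D1:**
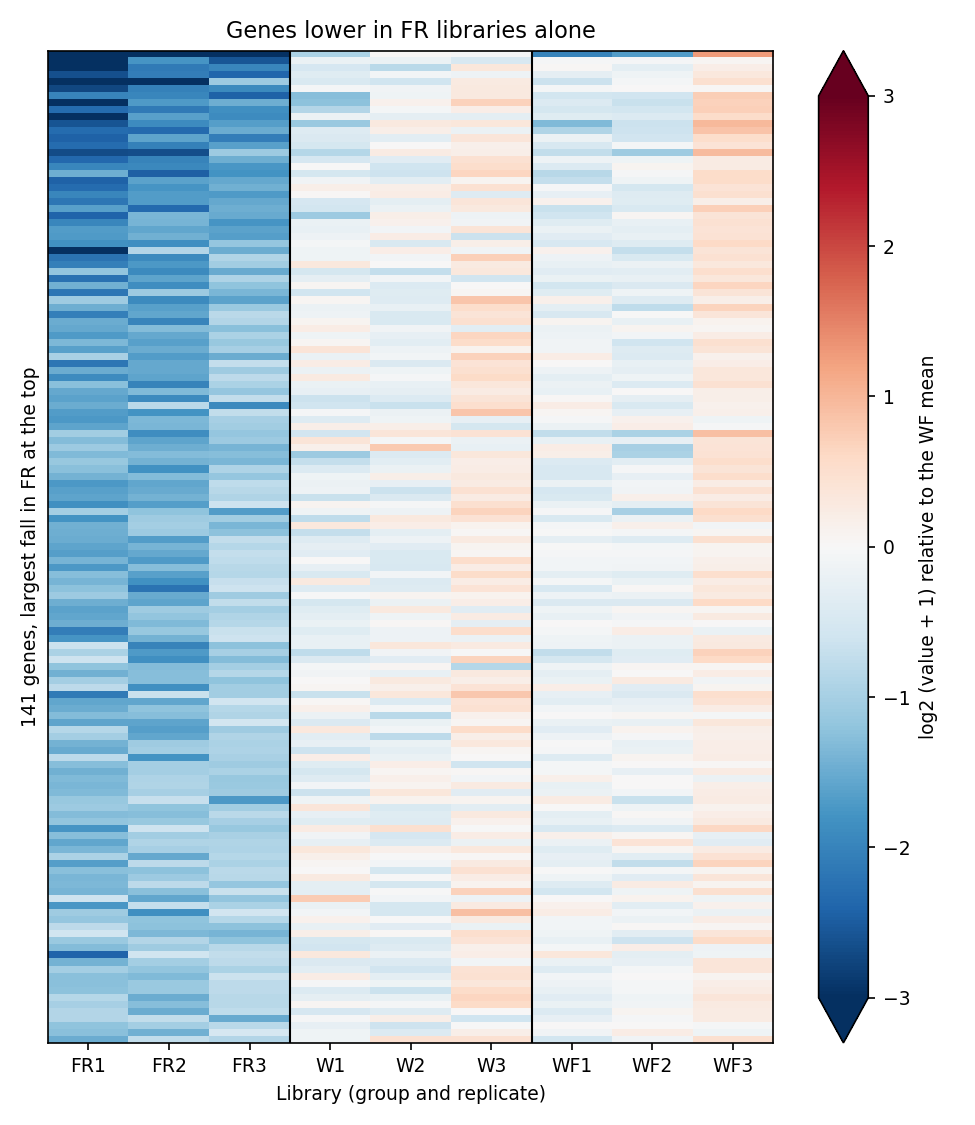
Each row is one of the 141 genes and each column a library, with colour for the log2 of the normalized count plus 1 relative to the weed-free mean of that gene. The FR columns are blue throughout, and within each group the third library is the palest or the reddest for most genes.

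**Figure D2:**
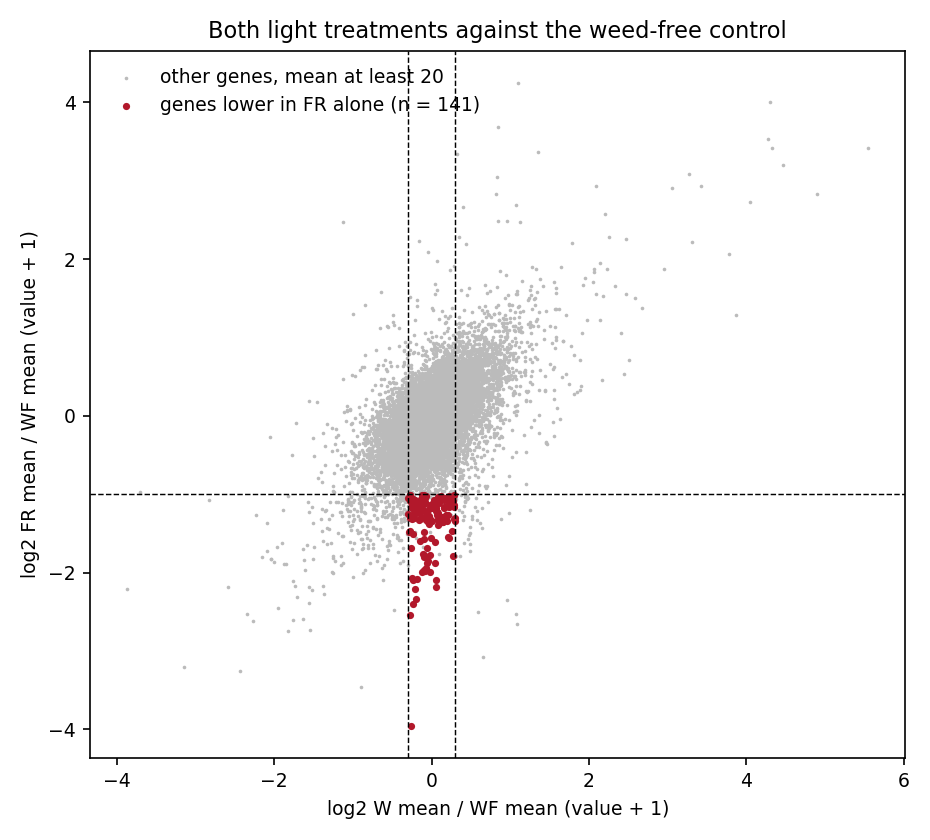
Each point is a gene with a mean of at least 20, by its log2 ratio of W to WF (horizontal) and of FR to WF (vertical), and the dashed lines are the limits of the rule. The 141 members (red) fill the strip under -1 between -0.3 and 0.3 by construction, with a single gene near -3.95.

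The demand for no overlap was met by 5.61% of all genes with a mean of at least 20 (FR below all W and WF libraries), and by 3.49% in the opposite direction. In the limma comparison of FR with WF, 133 of the 141 members were called lower at an adjusted p under 0.1, while of all 23450 genes tested 11.9% were called lower and 9.98% higher. This comparison is the one that chose them, so nothing follows from that count. The 8 members that were not called include YAB3 and gst14. In the comparison of FR with W, 0 of 141 members and 0.0% of 23476 genes were called lower by limma, while 1962 genes had an unadjusted p under 0.05 in either direction and DESeq2 on recovered reads called 199 genes lower. In W against WF, 0 members were called either way, where limma called 0.0% of 23600 genes lower and 0.0466% higher, 2374 genes had an unadjusted p under 0.05 and DESeq2 called 449. With the replicate number as a block limma called 1 gene in W against WF, and 11 without it.

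The same limits applied to other patterns chose fewer genes. Turned upward, they chose 15 genes that were higher in FR alone. They chose 6 genes that were lower in W alone and 16 that were higher in W alone. With the roles of FR and WF exchanged they chose 51 genes lower in WF alone and 49 higher in WF alone. Among the 261 genes that met the fold limit and did not overlap, W lay below the window in 79 and above it in 40.

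Of the 10 members that carry a name, 2 are beta-tubulin genes. The gene tub5, also listed as tub8 (LOC542418, chromosome 3, 48156255 to 48159596, minus strand), had 322, 313 and 431 normalized counts in FR, 798, 828 and 1265 in W, and 816, 755 and 1146 in WF. All FR libraries lay below the rest and the third library was highest in each group. Its log2 ratio of FR to WF was -1.35, and that of W to WF was 0.09. The gene tub4 (LOC542417, chromosome 5, 15528113 to 15531766, minus strand) had 192, 186 and 240 in FR, 469, 430 and 522 in W, and 406, 383 and 505 in WF. The W and WF ranges overlapped, and the log2 ratio of FR to WF was -1.06.

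The other tubulin genes were counted after the members' names were known. Of the 4 other beta-tubulin genes tested, 3 fell in FR against WF by limma at an adjusted p under 0.1 and 0 rose. Among all genes tested the shares called were 11.9% lower and 9.98% higher. The gene tub6 fell by 1.50 ± 0.14 (SE, limma, adjusted p = 0.0025) and missed the member list only because its log2 ratio of W to WF was -0.31. The genes tub3 and tub7 fell by 0.90 ± 0.15 (adjusted p = 0.0093) and 0.61 ± 0.098 (adjusted p = 0.0087), short of the fold limit, and TUBB2 had a log2 change of -0.34 ± 0.49 (adjusted p = 0.69). Of the 6 alpha-tubulin genes none is a member. The limma test called 5 of them lower, with tua5 and tua4 at -0.77 ± 0.092 and -0.76 ± 0.099, and tua3 higher, by 0.24 ± 0.076 (adjusted p = 0.073). The median log2 ratio of FR to WF was -0.98 over the beta-tubulin genes tested and -0.41 over the alpha-tubulin genes. The beta-tubulin median includes tub5 and tub4, which the rule chose for a low ratio, so the families are not compared by it. Tubulin genes are close copies of each other, and the paper's methods mention multimapped reads without saying how they were counted, while the submitters' notes name other tools, so the split between copies is uncertain. With TMM scaling or TPM values no tubulin or cellulose synthase gene tested changed direction.

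CesA12 (LOC542514, chromosome 7, 122676513 to 122680931, plus strand) belongs with cesa10 and cesa11 to the cellulose synthases of the secondary wall, the thick wall of vessels and fibres. It had 80.8, 45.9 and 69.7 normalized counts in FR, 182, 138 and 212 in W, and 115, 157 and 166 in WF. FR did not overlap with the rest, and W and WF did. The log2 ratio was -1.14 for FR to WF and 0.28 for W to WF, near the upper end of the window. Both other secondary wall genes were also lowest in FR. For cesa11 they were 229, 179 and 282 in FR, 582, 607 and 675 in W, and 442, 586 and 725 in WF, and it met every limit but is left out by name. For cesa10 they were 172, 144 and 211 in FR, 488, 525 and 730 in W, and 348, 348 and 489 in WF, and its log2 ratio of W to WF, 0.56, lay above the window.

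Over all 13 cellulose synthase genes, 9 of the 12 that are not members fell in FR against WF by limma. Only 1, CesA-3, rose, by 0.36 ± 0.074 (SE, adjusted p = 0.019). The fit called 11.9% of all genes tested lower and 9.98% higher. The 12 genes include cesa11, which met every limit, and cesa10, which met the fold limit and did not overlap. This count and the rank of the genes are therefore not independent of the rule. The genes of the secondary wall had the lowest log2 changes, -1.34 for cesa11 and -1.16 for cesa10, and CesA13 followed with -1.02. Those named CesA-1, CesA-2, CesA-4, CesA-7, CesA-8 and CesA-9 lay between -0.79 and -0.50. CesA-5 and CesA-6 had log2 changes of -0.18 ± 0.12 and -0.08 ± 0.075, which did not pass (adjusted p = 0.35 and 0.51). ANAC010 (LOC100282443), a gene of the NAC transcription factors that bears the name of an Arabidopsis gene linked to secondary walls, was a low member. It had 11.7, 7.98 and 18.4 normalized counts in FR, 36.7, 24.9 and 48.5 in W, and 36.7, 29.4 and 37.0 in WF.

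**Figure D3:**
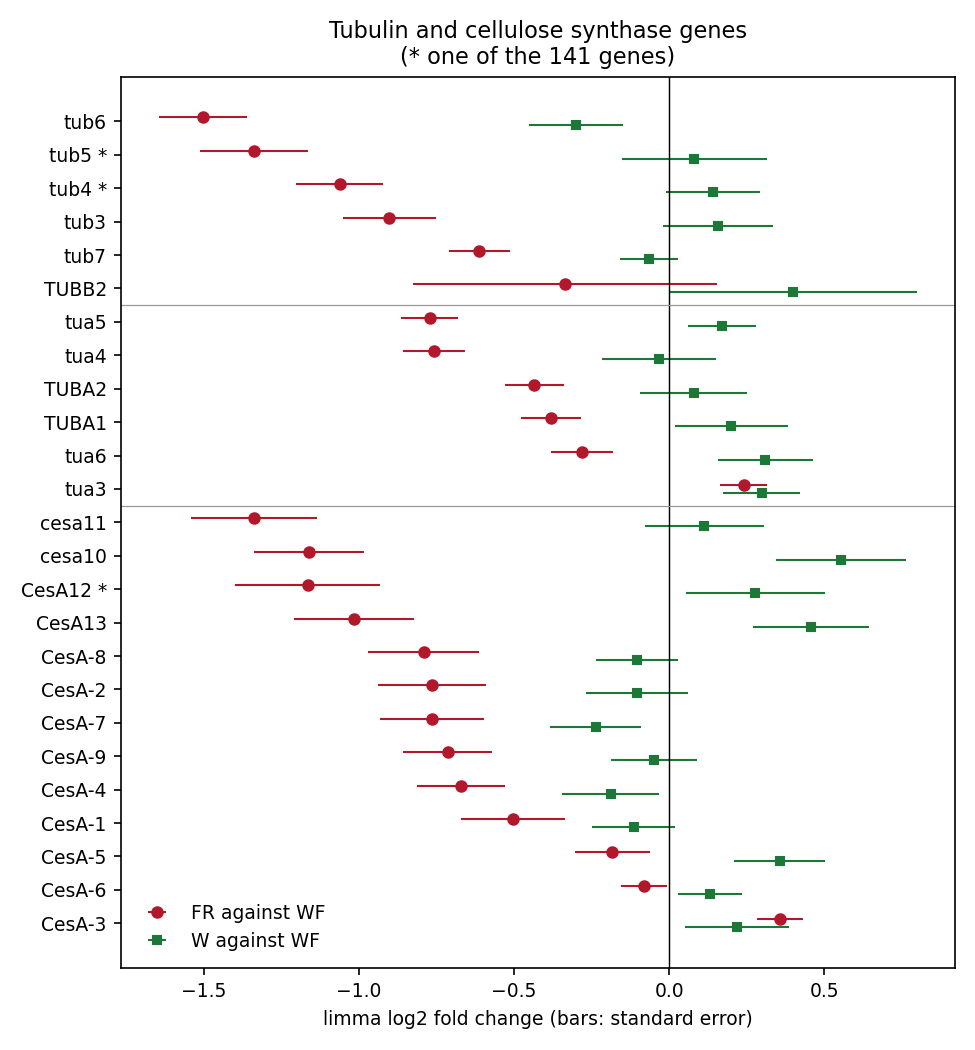
The limma log2 fold change with its standard error (horizontal) is shown for each tubulin and cellulose synthase gene tested (vertical), with circles for FR against WF and squares for W against WF, 3 libraries per group. Most circles lie left of 0, with tub6 the farthest, while tua3 and CesA-3 lie to the right, and the squares lie within about 0.6 of 0.

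The wax gene gl4a (LOC100191738, chromosome 4, 171917530 to 171919359, plus strand), of the glossy genes that act in making cuticular wax, was the most abundant named member by normalized count. It had 390, 443 and 899 in FR, 1468, 1363 and 1936 in W, and 1202, 1141 and 1831 in WF. FR3 lay nearest to the other groups, and WF2, the lowest of their libraries, was 1.27 times higher. Of the 4 other glossy genes tested, limma called 3 lower in FR, gl8b, gl1 and gl15, by 0.35 to 0.56. The share called lower over all genes tested was 11.9%. The gene gl8 had -0.32 ± 0.17 (adjusted p = 0.23). The log2 change of gl4a in the same fit, -1.34 ± 0.30, was the lowest of the 5. The rule chose gl4a for its low ratio, so nothing follows from that rank.

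The import receptor gene toc34B, also toc35 (LOC542012, chromosome 1, 32164647 to 32170649, minus strand), encodes a GTP-binding receptor of the chloroplast outer envelope through which precursor proteins enter. It had 107, 134 and 128 normalized counts in FR, 172, 342 and 212 in W, and 235, 253 and 315 in WF. The FR libraries lay close together, and W2 was the highest of all. The other gene of this receptor family, toc34 (LOC542502), had 234, 249 and 267 in FR, 339, 352 and 364 in W, and 377, 391 and 463 in WF. It also lay below the rest in every FR library, and fell by 0.71 ± 0.11 against WF (limma, adjusted p = 0.0082), which is short of the fold limit.

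Other families held 1 member each. HAK12 (LOC103641145), of the KUP/HAK/KT potassium transporters, had 21.4, 27.9 and 49.0 normalized counts in FR, 64.5, 68.5 and 67.1 in W, and 68.9, 66.4 and 91.9 in WF. Of the 17 other HAK genes tested, limma called 8 higher and 1 lower in FR, and the family median log2 ratio of FR to WF was 0.29. Limma called 9.98% of all genes tested higher and 11.9% lower. The glutathione transferase gene gst14 (LOC541832), of the enzymes that conjugate glutathione to toxic compounds, had 9.74, 16.9 and 15.3 in FR, 26.5, 40.5 and 40.4 in W, and 19.7, 26.8 and 40.7 in WF. Of 21 other gst genes tested, 3 were called higher and 2 lower, close to the shares over all genes.

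YAB3 (LOC100283014), of the YABBY transcription factors known for setting the faces of the leaf, had 13.6, 25.9 and 23.0 normalized counts in FR, 46.8, 42.6 and 54.9 in W, and 36.7, 26.8 and 72.0 in WF. The lowest control library exceeded the highest FR library by a ratio of only 1.04, and without WF3 its log2 ratio of FR to WF was -0.59. The 3 other YABBY genes tested were called neither higher nor lower. TAZ1 (LOC100191305) had 181, 215 and 222 in FR, 621, 495 and 425 in W, and 473, 565 and 554 in WF. It was one of the named members whose highest values were not in library 3 of W or WF.

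**Figure D4:**
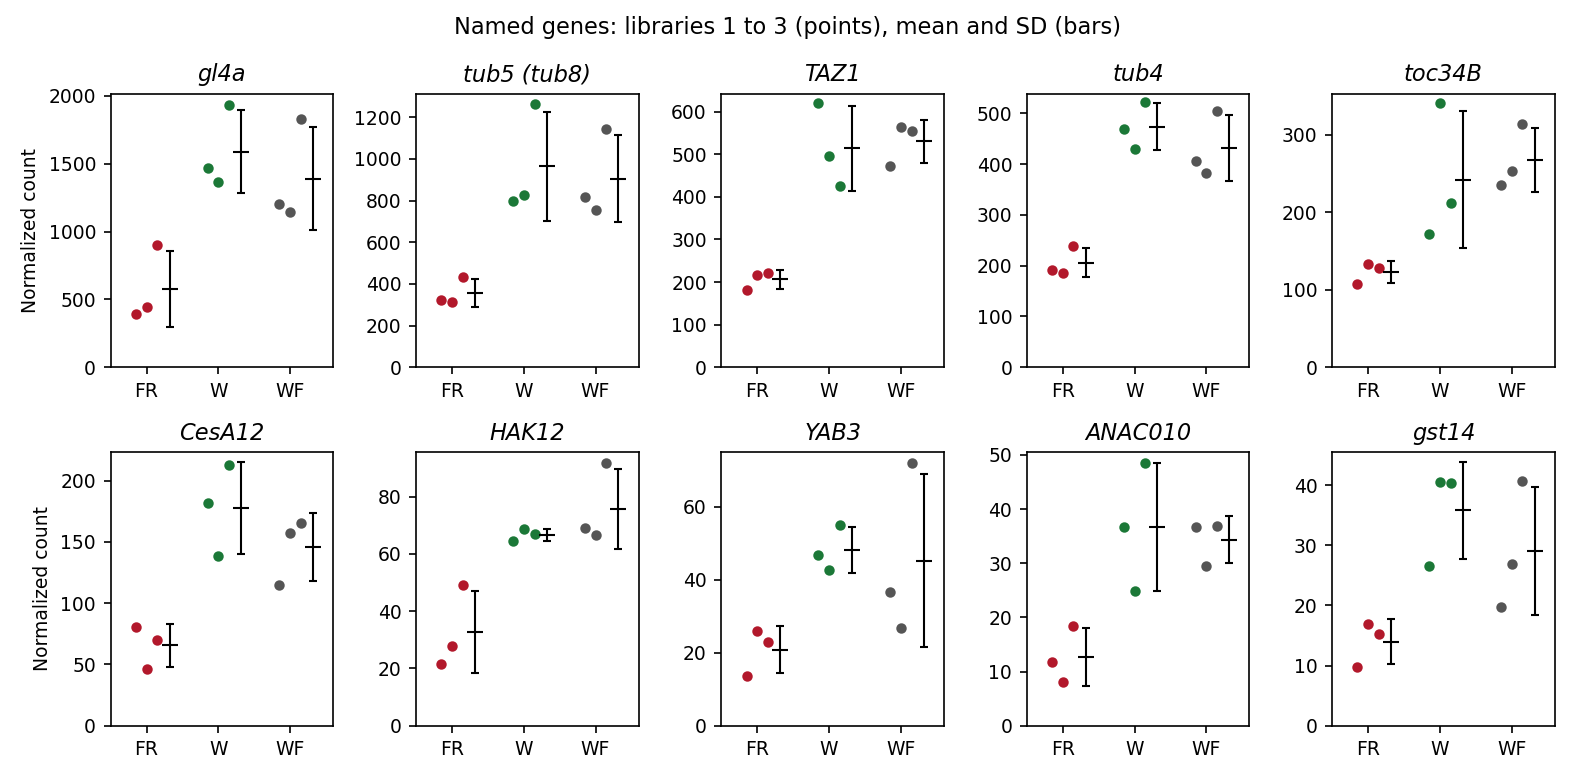
Normalized counts (vertical, from 0) are shown for the 10 named members in FR, W and WF, with a point per library in the order 1 to 3 and the mean and SD (n = 3) beside them. In every panel the FR points lie below all W and WF points, as the rule requires, and the W and WF points overlap.

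Most members carry no name: 131 of the 141 have an identifier only, and 7.09% have a name against 9.95% of all genes with a mean of at least 20. In the RefSeq annotation 139 were matched. Of these, 136 are protein-coding, and there is 1 long non-coding RNA, 1 snoRNA and 1 transcribed pseudogene. No role is given here to an unnamed gene. None of 34 lists of functional terms matched a member, since the annotation pairs identifiers with symbols and not with descriptions.

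The largest fold among the members was that of LOC100273254 (chromosome 2, 20628498 to 20629440, minus strand). It had 2.92, 5.98 and 8.42 normalized counts in FR, 53.1, 106 and 102 in W, and 25.1, 31.9 and 255 in WF. FR lay below all other libraries, W and WF overlapped, and WF3 alone held most of the weed-free total. The log2 ratio of FR to WF was -3.95, and -2.12 without WF3. LOC100285285 had the widest gap, with 3.89, 6.98 and 7.65 in FR, 30.3, 29.1 and 38.8 in W, and 30.4, 31.9 and 32.2 in WF. Its lowest W or WF value was 3.8 times its highest FR value, and its replicates lay close together in all groups.

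LOC100383589 followed, with 12.7, 18.9 and 15.3 in FR, 64.5, 78.9 and 74.3 in W, and 68.9, 76.7 and 104 in WF, a gap of 3.40 times. Over all members the gap between the highest FR value and the lowest of the others had a median ratio of 1.37 and came down to nearly 1. The other members with the lowest FR ratios were LOC100192806 at -2.54, LOC100278496 at -2.41, LOC103637459 at -2.21, LOC100281639 at -2.10, LOCLOC100382176 at -2.09 and LOC100276236 at -2.08 (log2 of FR to WF). The long non-coding RNA LOC103650997 had 7.79, 22.9 and 19.1 in FR, 64.5, 60.2 and 59.8 in W, and 56.4, 54.9 and 108 in WF.

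The members were mostly of modest level. Their mean normalized count had a median of 87.5, against 255 over all genes with a mean of at least 20, and 45 lay between 20 and 50. In TPM, a transcript abundance corrected for gene length and library size, the weed-free mean had a median of 3.05 and ranged from 0.317 to 402, and 16 members lay under 1 TPM. The most abundant member was LOC103650536, with a mean of 167 TPM in FR, 365 TPM in W and 402 TPM in WF. Its normalized counts were 3370, 3761 and 6490 in FR, 9796, 9312 and 13075 in W, and 9837, 10384 and 12937 in WF, so FR3 stood above FR1 and FR2 but below all others.

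Of the next most abundant members, LOC100283035 had log2 ratios of -1.04 for FR to WF and 0.08 for W to WF, LOC100383565 had -1.24 and -0.23, and LOC100279270 had -1.31 and 0.08. The members LOC100274288, LOC100282047, LOC100280285, LOC100281738 and LOC100273383 had log2 ratios of FR to WF between -1.24 and -1.1. Summed over all members, the normalized counts were 18760, 19970 and 28379 in FR, 48841, 45985 and 61817 in W, and 47538, 48536 and 63819 in WF. The third library held the highest sum in each group.

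That order of the replicates ran through the list. In 65 members (46.1%) the third library was the highest of its group in FR, W and WF alike, against 6.58% of all genes with a mean of at least 20. The rule set no limit on the order within a group. Its fold limit and its window for W use group means of the same libraries, so this order is not independent of the choice of members. FR3 was the highest FR library in 94 members, W3 the highest W library in 98 and WF3 the highest WF library in 119. These are 66.7%, 69.5% and 84.4% of the members, against 35.5%, 43.0% and 32.7% of all genes.

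After the group means were removed, pairs of members had a median correlation of 0.436 over the 9 libraries, and pairs of all genes a median of -0.006. This describes the libraries, which the genes share, and has no test. The paper's methods describe a randomized complete block design with 3 replications, and neither they nor the labels say whether the library numbers are those blocks. The part of the third libraries in the choice of the members was not tested beyond leaving each out, as given in the closing section. Within replicate numbers the FR level was lower than the WF level in all 141 members, which the demand for no overlap fixes in advance. The median log2 ratios of FR to WF were -1.34, -1.29 and -1.29 for replicates 1, 2 and 3. The median log2 ratios of W to WF were -0.02, 0.04 and -0.01.

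**Figure D5:**
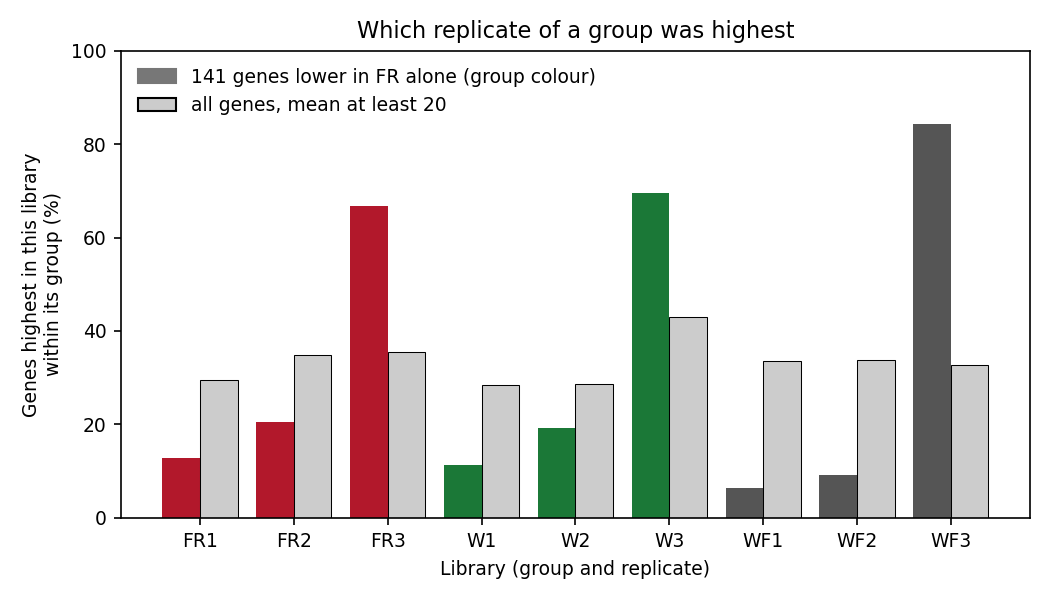
For each library the bars give the percentage of genes whose highest value within the group was in that library, in colour for the 141 members and in pale grey for all genes with a mean of at least 20. The bars of the members reach 66.7% in FR3, 69.5% in W3 and 84.4% in WF3, and those of all genes lie between 28.4% and 43.0%.

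The likeness of W and WF in these genes depended on which libraries were compared. With W3 left out and all 3 WF libraries kept, the median log2 ratio of W to WF was -0.20, and 108 of the 141 members lay below 0. Then 93 stayed within the window, 45 lay below it and 3 above it. W1 and W2 were here set against a WF mean that held WF3, the highest WF library in 119 members. Within replicate numbers 1 and 2 the median log2 ratios of W to WF were -0.02 and 0.04. W and WF values overlapped in 138 members, against 81.8% of all genes with a mean of at least 20. The rule's window for W favours such overlap, so nothing follows from that count. In 3 members all W libraries lay below all WF libraries. One of those 3 was LOC100284262, with 351, 255 and 256 normalized counts in FR, 517, 478 and 520 in W, and 566, 616 and 623 in WF.

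The members' TPM values, which the authors also deposited, gave a similar picture for FR and a looser one for W. In 136 members the log2 ratio of the mean TPM was -1 or lower for FR to WF, and in 131 the FR libraries lay below all others. In 113 the log2 ratio of W to WF stayed within 0.3 of 0, and 102 met all 3 limits. The median log2 ratio of TPM was -1.27 for FR to WF and -0.13 for W to WF. In 140 of the 141 members the mean TPM was lower in FR than in WF.

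Just inside the fold limit were gst14 and the genes LOC100281669 and LOC100382290, with log2 ratios from -1.006 to -1.005. Just outside it were LOC100191914, nbis-pseudogene-2071 and LOC100282999, with ratios from -0.997 to -0.995. The normalized counts of LOC100382290 were 48.7, 55.8 and 65.1 in FR, 96.1, 73.7 and 114 in W, and 115, 116 and 112 in WF. Those of LOC100282999 were 66.2, 59.8 and 82.7 in FR, 126, 125 and 183 in W, and 112, 125 and 182 in WF. The limit thus separates genes with nearly the same values, and 31 of the members lay between -1.1 and -1.

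Genes outside the list followed the most abundant members closely. Over the 9 libraries the Pearson correlation of log2 values with LOC103650536 was 0.986 for LOC103630171, 0.986 for exg1 (LOC100191390), a gene named for an exoglucanase, and 0.985 for LOC100191794. For LOC100283035 the nearest were NRT1.2 (LOC778429), of a family of nitrate transporters, and LOC107228385, both at 0.991, and LOC100281180 at 0.985. For LOC100383565 they were exg1 at 0.994, LOC100381429 at 0.979 and LOC103630171 at 0.979. These genes had log2 ratios of FR to WF between -0.88 and -0.78, above the fold limit. The 9 points share their groups, so these values are a description and carry no test. exg1 averaged 4121 normalized counts in FR, 6887 in W and 7551 in WF, and NRT1.2 averaged 237 in FR, 423 in W and 417 in WF.

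The members were spread over all 10 chromosomes, from 7 genes on chromosomes 6 and 9 to 24 on chromosome 1, which held 17.0% of them against 15.6% of all genes. There were 7 pairs of members within 200 kb of each other, of which 3 had no annotated gene between them. One such pair, LOC100192114 and LOC100283989 on chromosome 4 with 91026 bases between them, had log2 ratios of FR to WF of -1.02 and -1.61. The first had 103, 85.7 and 116 normalized counts in FR, 217, 200 and 309 in W, and 180, 193 and 251 in WF. The second had 46.7, 50.8 and 49.0 in FR, 130, 142 and 197 in W, and 132, 123 and 201 in WF. Both were highest in the third library of W and of WF. The genes of the list were shorter than most, with a median span of 2481 bases from start to end against 3907 bases for all genes with a mean of at least 20.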

How the data were processed

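RNA-seq libraries from 3 groups of 3 were compared. The values used are a signal of 30184 genes that the authors deposited: reads per gene over a size factor particular to the library. TPM values were deposited by the authors in 1 file per library. The submitters' processing notes name Bowtie2 2.4.3, HTSeq 0.13.5 and DESeq2 1.30.1, whereas the paper's methods describe another aligner and counter. Deposited comparison tables hold fold changes and p-values of the authors and were not used. The rule for members was applied to the normalized table.

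Values were set to log2(value + 1), genes with at least 10 in at least 3 of 6 libraries were kept, and each pair of groups was compared with limma 3.58.1 (R 4.3.3) with a trend, Benjamini-Hochberg adjustment and a threshold of 0.1. Since the values are not counts, DESeq2 1.42.0 was run only on recovered reads as an alternative, without FR2, whose value per read of 0.997 is too near 1. TMM factors came from edgeR 4.0.16, and tables were made with Python 3.11.15, numpy 2.4.6, pandas 2.3.3 and matplotlib 3.10.9. The limma step was tested on simulated data. Recovered reads per library set the depth. Members with a normalized count near 20 rest on few reads and are imprecise. p-values measure the spread between pools of 3 plants.

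The main comparisons did not pair the replicate numbers, and the replicate block was run as an alternative. After removal of group means, same-numbered libraries of FR and W had correlations of 0.122, 0.231 and 0.13, all above 0.1. The correlations were not all above 0.1 between FR and WF (0.0057, 0.091 and 0.097) or W and WF. The study's design was in blocks. The members and the lists were chosen with earlier results of these data known, and the 8 families of gene symbols after the members' names were seen. Named genes are the members with a symbol, the 10 with the lowest ratio, the 10 with the highest mean, those next to the fold limit and the closest genes by correlation; genes named beyond these were chosen after their values were seen. Gene positions are as deposited, and symbols and biotypes come from RefSeq (assembly Zm-B73-REFERENCE-NAM-5.0).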

Additional observations from a re-analysis of the deposited data

How the results depend on the processing

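The number of genes that met the rule, 141, depended on its limits and on single libraries. It was 249 with a log2 ratio of FR to WF of at most -0.8, 69 with a fold of at least 2.4, and 214 with a W window of 0.5. The rule was also run on TPM values with 1 added, which shrinks ratios at low TPM, and with a lower abundance limit, a mean of 1 TPM. Then 49 genes met it, 42 of them shared, and the median log2 ratio of the 141 members was -0.87. Leaving out 1 library at a time gave 91 to 255 genes, 255 without FR3 (136 shared) and 91 without WF3 (73 shared), and without W3 123 genes met the rule, of which 89 were shared. The median log2 ratio of the 141 members without 1 FR or WF library ranged from -1.42 to -1.1. With the roles of FR and WF exchanged, an alternative chosen after seeing the data, 51 genes met the rule and 0 were shared.

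For FR against WF limma called 2780 genes lower, 1679 at an adjusted p under 0.05, 765 with all 9 libraries in 1 fit, 2855 with the replicate block, and 1274 to 3016 without 1 library, the lowest without WF3. For FR against W, 0 genes were called lower, also with the replicate block, 22 with a pseudocount of 5, 15 on TPM values, 240 with all 9 libraries, 199 with DESeq2 and 0 to 65 without 1 library, 65 without W3. For W against WF, 11 genes were called, 2 at an adjusted p under 0.05, 50 on TPM values, 94 with all 9 libraries, 1 with the replicate block, 449 with DESeq2 and 0 to 1936 without 1 library, 1936 without W3. The cause of these moves was not tested. Of 410 log2 ratios of FR to WF, for the 41 genes that the rule for named genes takes, 382 stayed within the spread over the FR libraries under the alternatives run, 28 moved further and 0 changed sign. In members the demand for no overlap fixes the sign in advance for a dropped library, group medians or another pseudocount. Nothing follows from the 0 there. The other genes of the families were run only with TMM and TPM.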
